A study of Mus musculus with 12 samples.

Results

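Heat shock proteins, their DnaJ and BAG cochaperones, and 4 genes of the unfolded protein response were followed in the hippocampus of mice after a single episode of restraint. The members were taken by gene symbol: every symbol starting with Dnaj, or with Hspa, Hspb, Hspd, Hspe, Hsph or Bag and a digit, plus Herpud1, Xbp1, Atf4 and Ddit3. This gave 79 of 23953 genes in the RNA tables, with 117 transcripts. They fell into 11 Hsp70 genes, 3 Hsp110 genes, 2 genes of the mitochondrial chaperonin, 8 small heat shock proteins, 4 DnaJ genes of type A, 13 of type B, 28 of type C, 6 BAG genes and the 4 genes of the unfolded protein response. Symbols alone set the membership.

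Hsp70 proteins bind and release unfolded stretches of other proteins in a cycle driven by ATP. DnaJ proteins, also called Hsp40, bring clients to Hsp70 and start the hydrolysis of ATP, and Hsp110 and BAG proteins release the ADP and so free the client. Heat, oxidation and other threats to folding activate heat shock factor 1, which binds repeats of the heat shock element in the promoters of inducible chaperones, while unfolded proteins in the endoplasmic reticulum switch on a separate set through XBP1, ATF6 and ATF4. In neurons some members also have standing tasks, such as the uncoating of clathrin vesicles by Hspa8 and auxilin (Dnajc6) and the care of synaptic vesicle proteins by cysteine string protein (Dnajc5).

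The animals were male C57BL/6 mice, and no transgene or mutation is named for them. The 6 mice of the stress group were held in a conical tube for 30 min, starting 2 h after lights on, spent 1 h alone in a clean cage and were killed after brief isoflurane. The 5 control mice received the isoflurane but no restraint, and they were taken straight from their cage when the stress of the others began, so they lacked the time alone as well as the restraint and were killed earlier in the day. The age is stated as postnatal day 28 in the tags but as 7 weeks in the protocol. Whole hippocampus from pools of up to 2 mice gave 3 stress and 3 control libraries of captured 5-hydroxymethylcytosine (5hmC), a base that TET enzymes make from methylated cytosine and that brain DNA holds in plenty, and RNA came from the same pools. RNA was deposited as 1 table per group, in FPKM, a count of fragments set against transcript length and against the total of the table, so RNA differences have no replicate and no test and describe these 2 tables.

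Each 5hmC library had its own list of 15195 to 31654 peaks covering 16.6 to 38.1 Mb, and the longest lists were those of stress replicates 2 and 3 and control replicate 2. The tables carried the markers of hippocampal excitatory neurons, with all 6 listed above 1 FPKM and a summed level of 583 FPKM in the control table and 636 FPKM in the stress table. Markers of choroid plexus, a tissue of the adjoining ventricle, were lower in the stress table. All 6 of them that averaged 1 FPKM or more were past 1.5-fold, with a median of -1.12 on the scale log2((stress FPKM + 1)/(control FPKM + 1)), which understates the change of low genes. The summed level of the whole list was 234 FPKM in controls and 65.4 FPKM after stress, and no marker was listed at 0. Oligodendrocyte markers summed to 1347 and 1180 FPKM, with 5 of 6 below the median difference of all genes, and astrocyte markers to 161 and 184 FPKM, with 5 of 5 above it. These shifts stand beside every RNA difference given here, and their part in them was not tested. In whole tissue, fewer cells of a type and less RNA per cell cannot be told apart.

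Chaperones were a well expressed group. A mean of at least 1 FPKM over the 2 tables was reached by 65 of 79 members (82.3%) and by 46.2% of all genes, and these genes are called kept. The members together held 1178 FPKM in controls and 1294 in stress, a ratio of 1.10 where the sum over all genes had 1.07. Hspa8, the constitutive Hsp70 of the cytosol, had 333 FPKM in controls and 406 FPKM after stress, the highest level of any member in each. Without it the sum of the others was 845 and 888 FPKM. These stress sums of members count Dnajb6 as 0, the value listed for it there, beside 37.8 FPKM in controls. After Hspa8 came Hsph1, an Hsp110 that releases ADP from Hsp70, with 65.3 FPKM in the control table, then Dnajc5 with 38.5, Hspa4 with 38.2, Dnajb6 with 37.8, Dnajc6 with 34.5, Bag1 with 33.0 and Hspa9 with 32.0 FPKM. Levels from 38.5 to 32.0 FPKM were close, and without replicates their order is that of 1 table.

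The difference between the tables was small for most members. On that log2 scale the 65 kept members had a median of 0.11 and the middle 50% lay between 0.03 and 0.19. All 11071 genes kept had a median of 0.08, with the middle 50% between -0.03 and 0.19. Of the members 36 lay above and 29 below the median of all genes. On that scale, with 1 added to each level, no kept member was at least 1.5-fold higher in the stress table, where 1.18% of all genes were. The 1 kept member past 1.5-fold lower on it was Dnajb6, which the stress table lists at 0, where 0.894% of all genes passed. The plain FPKM ratios of stress to control were 1.56 for Herpud1, 1.57 for Hspa1a, 1.60 for Hspa1b and 0.559 for Dnajc4. With a pseudocount of 0.1 in place of 1, Herpud1, Hspa1a and Hspa1b passed 1.5-fold higher (3.03% of all genes). Dnajc4 then passed 1.5-fold lower as well as Dnajb6 (1.98% of all genes), so each count depended on the pseudocount.

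**Figure D1:**
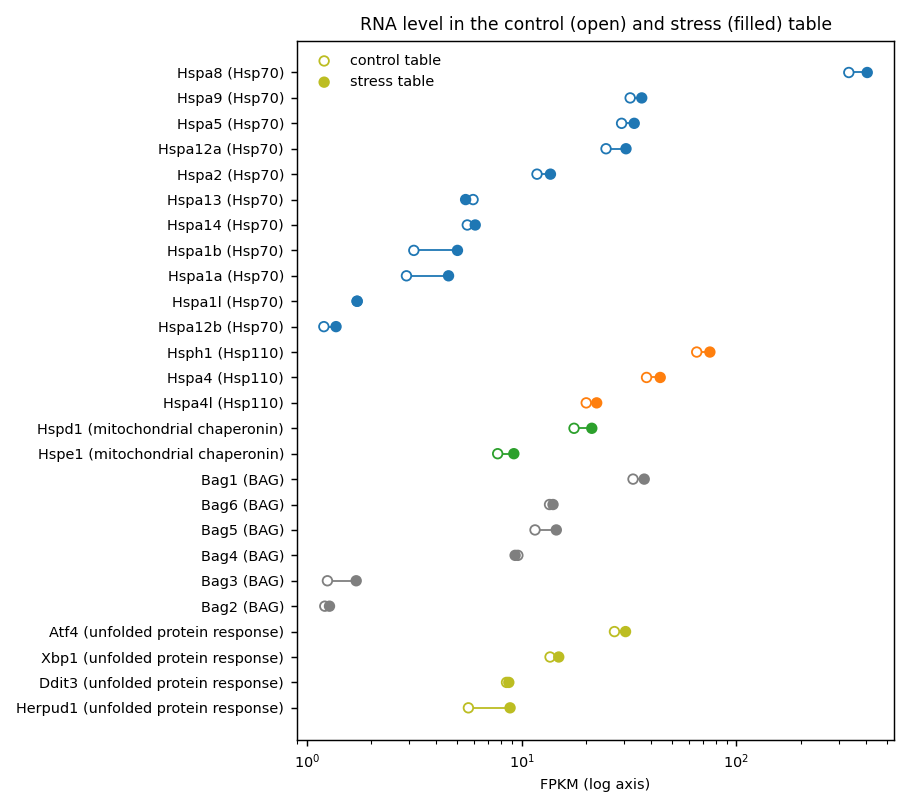
RNA level of the 26 kept Hsp70, Hsp110, mitochondrial chaperonin, BAG and unfolded protein response genes, in FPKM on a log axis, with open points for the control table and filled points for the stress table, 1 value each. Hspa8 lies far to the right at 333 and 406 FPKM, and the widest gaps are those of Herpud1, Hspa1a and Hspa1b.

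Among the Hsp70 genes, the stress-inducible pair had the highest differences. Hspa1a had 2.91 FPKM in the control table and 4.57 FPKM in the stress table (log2 difference 0.51), and Hspa1b had 3.15 and 5.03 FPKM (0.54). They lie on chromosome 17 (mm9, chr17:35106304-35109101 and chr17:35093374-35096183, minus strand) and are near-identical copies whose reads the counting could split, so the division between them is uncertain. These differences exceeded those of 98.1% and 98.4% of the genes kept. Hspa12a, a distant relative of Hsp70, had 24.7 and 30.6 FPKM (0.30), and Hspa8 had a difference of 0.28. Hspa2 (11.8 and 13.6 FPKM), Hspa5, the chaperone of the endoplasmic reticulum also called BiP (29.2 and 33.4 FPKM, 0.19), and Hspa9, the mitochondrial Hsp70 (32.0 and 36.3 FPKM, 0.17), were also above the median of all genes. Of the 11 genes 9 were, among them Hspa12b (1.20 and 1.37 FPKM) and Hspa14, and the exceptions were Hspa13 (5.95 and 5.49 FPKM) and Hspa1l (1.72 and 1.72 FPKM). Summed over the class, the level was 452 FPKM in controls and 544 FPKM after stress.

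The bases just before the start of Hspa1a and Hspa1b are shown because the pair had the highest Hsp70 differences. They are from RefSeq promoters (GRCm38.p6, minus strand, chr17:34972157-34972306 and chr17:34959239-34959388), 150 bases that end at the start site, with a 2-unit heat shock element in capitals at positions -104 to -97, counted back from the start.
Hspa1a: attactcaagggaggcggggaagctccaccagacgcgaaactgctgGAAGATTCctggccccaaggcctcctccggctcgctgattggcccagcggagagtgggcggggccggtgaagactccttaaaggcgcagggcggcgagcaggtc
Hspa1b: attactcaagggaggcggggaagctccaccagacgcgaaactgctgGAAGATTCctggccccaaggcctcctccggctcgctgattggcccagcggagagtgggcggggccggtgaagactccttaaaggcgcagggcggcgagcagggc
The pair differed at 1 of these 150 bases, and at 3 of the 250 bases before the start (98.8% identical).

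The Hsp110 and mitochondrial chaperonin genes all lay above the median of all genes. Of the 3 Hsp110 genes, Hsph1 had 65.3 FPKM in controls and 75.2 in stress, Hspa4 had 38.2 and 44.2, and Hspa4l had 20.0 and 22.4. Hspd1, the Hsp60 subunit that forms the folding chamber of mitochondria, had 17.6 and 21.2 FPKM (log2 difference 0.26). Hspe1, the Hsp10 lid of that chamber, had 7.74 and 9.21 FPKM (0.22).

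Hspd1 and Hspe1 are read in opposite directions, and their promoter windows overlap on chromosome 1. The 30 bases shown hold 2 overlapping 3-unit heat shock elements, in capitals, at positions -89 to -72 from the start of Hspe1 (GRCm38.p6, chr1:55088053-55088082, plus strand).
Hspe1: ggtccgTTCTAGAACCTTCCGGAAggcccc
Read from the other strand, the elements lie at positions -144 to -127 from the start of Hspd1.

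Small heat shock proteins hold unfolded proteins without ATP. Of the 8 with an Hspb symbol 3 were kept, all under 4 FPKM, while Cryab, a small heat shock protein outside the symbol rule, had 33.8 FPKM in the control table and 35.5 FPKM in the stress table. Hspb11, which despite its symbol works in the transport of cilia, had 3.02 FPKM in controls and 3.78 FPKM after stress. Hspb6 had 1.34 and 1.11 FPKM, and Hspb8, a partner of Bag3, had 1.33 and 1.42. Hspb1, the inducible Hsp27, had 0.756 and 0.540 FPKM. Hspb3 had 0.109 and 0.0965 FPKM, Hspb7 had 0.00485 and 0.00856, and Hspb2 and Hspb9 were listed at 0 in both tables.

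DnaJ genes made up most of the group and lay on both sides of the median of all genes. Of type A, Dnaja4 had 10.1 FPKM in the control table and 12.3 FPKM in the stress table, and Dnaja2, Dnaja1 and Dnaja3 lay between 0.08 and 0.15 on the log2 scale. Of the 9 type B genes kept, 4 lay above and 5 below the median of all genes. The higher ones were Dnajb5 (10.3 and 13.6 FPKM, 0.37), Dnajb4 (11.3 and 14.0 FPKM, 0.29), Dnajb1, the main inducible Hsp40 of the cytosol (9.54 and 10.9 FPKM, 0.17), and Dnajb11 of the endoplasmic reticulum (12.3 and 13.5 FPKM). Dnajb14, an Hsp40 of the membrane of the endoplasmic reticulum, had 6.23 and 5.26 FPKM (-0.21), and its relative Dnajb12 had 8.82 and 9.25 FPKM. Dnajb9 (15.9 and 16.5 FPKM) and Dnajb2, a DnaJ enriched in neurons (20.0 and 19.7 FPKM), were below that median as well.

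Dnajb6, which keeps aggregation-prone proteins from forming fibrils, had 37.8 FPKM in the control table and was listed at 0 in the stress table, with every value of its 4 transcripts at 0 there. NM_001127367 had 33.3 FPKM of the control level and NM_001037940 had 4.41 FPKM. A listed 0 can be a failed estimate: 10 genes with at least 10 FPKM in the control table were listed at 0 in the stress table, and 16 the other way round. No fold is given for it, and the class sums of 133 and 103 FPKM include its 0.

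The promoter of Dnajb6 is shown because the gene is listed at 0 in the stress table and not in the control table. The 150 bases before one of its 2 listed starts (GRCm38.p6, chr5:29735748-29735897, plus strand) hold a 3-unit heat shock element, in capitals, at positions -46 to -34.
Dnajb6: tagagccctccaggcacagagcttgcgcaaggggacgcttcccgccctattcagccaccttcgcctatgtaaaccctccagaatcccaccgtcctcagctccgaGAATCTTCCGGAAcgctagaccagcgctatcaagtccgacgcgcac

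Of 28 type C genes 23 were kept, 8 above and 15 below the median of all genes. Dnajc19, part of the motor that imports proteins into mitochondria, had 4.04 FPKM in controls and 5.53 in stress (0.37). Dnajc2, which works with Hspa14 at the ribosome, had 5.37 and 6.28 FPKM, and Hspa14 itself 5.59 and 6.09. The synaptic members were close between the tables: Dnajc5 had 38.5 and 40.2 FPKM, and auxilin (Dnajc6) had 34.5 and 33.0. At the lower end Dnajc4 had 2.75 and 1.54 FPKM, a plain stress to control ratio of 0.559. With the pseudocount of 1 its log2 difference was -0.56, short of the 0.58 in size that 1.5-fold has on that scale. Dnajc12, a chaperone of the aromatic amino acid hydroxylases, had 4.38 and 4.16 FPKM, and Dnajc8, a splicing factor, had 21.6 and 20.7. The other 16 type C genes kept, which serve the endoplasmic reticulum, mitochondria, endosomes and splicing among other places, lay between -0.05 and 0.18. Those not kept were Dnajc17 (1.12 and 0.482 FPKM), Dnajc25 (0.876 and 0.787), Dnajc5g, listed at 0 in the control table and at 0.0162 FPKM in the stress table, and Dnajc22 and Dnajc5b, listed at 0 in both. Of type B, Dnajb3 (0.756 and 0.327 FPKM), Dnajb13 (0.12 and 0.0824) and Dnajb7 (0.0765 and 0.158) were not kept, and Dnajb8 was listed at 0 in both tables.

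Among the BAG genes, Bag5 had 11.6 FPKM in controls and 14.5 FPKM after stress (0.31), and Bag3, which is induced with Hsp70 and sends clients to autophagy, had 1.25 and 1.70 FPKM (0.26). Bag1 had 33.0 and 37.2 FPKM. Bag6, which guards newly made membrane proteins, Bag2 and Bag4 lay between -0.04 and 0.05, below the median of all genes.

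Herpud1, which serves the degradation of proteins from the endoplasmic reticulum, had 5.66 FPKM in the control table and 8.84 FPKM in the stress table. With the pseudocount of 1 its difference of 0.56 was the highest of the members, and with 0.1 that of Hspa1b was higher (0.66 beside 0.64). The transcription factors of the unfolded protein response differed less. Atf4 had 27.1 and 30.5 FPKM (0.17), Xbp1 had 13.6 and 14.9 (0.13), and Ddit3, the proapoptotic factor CHOP, had 8.51 and 8.73 (0.03). In several members with more than 1 transcript, the transcripts differed in direction, and 3 of them are given here. For Hspa5, NM_022310 had 6.33 and 13.1 FPKM while the more abundant NM_001163434 had 22.9 and 20.3. For Atf4, NM_009716 had 11.4 and 15.5 FPKM and NM_001287180 had 15.7 and 15.0. For Dnajc12, NM_001253685 had 2.45 and 1.17 FPKM and NM_013888 had 1.93 and 2.99. Each pair overlaps in the genome, so the split of reads between the transcripts is an estimate.

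**Figure D2:**
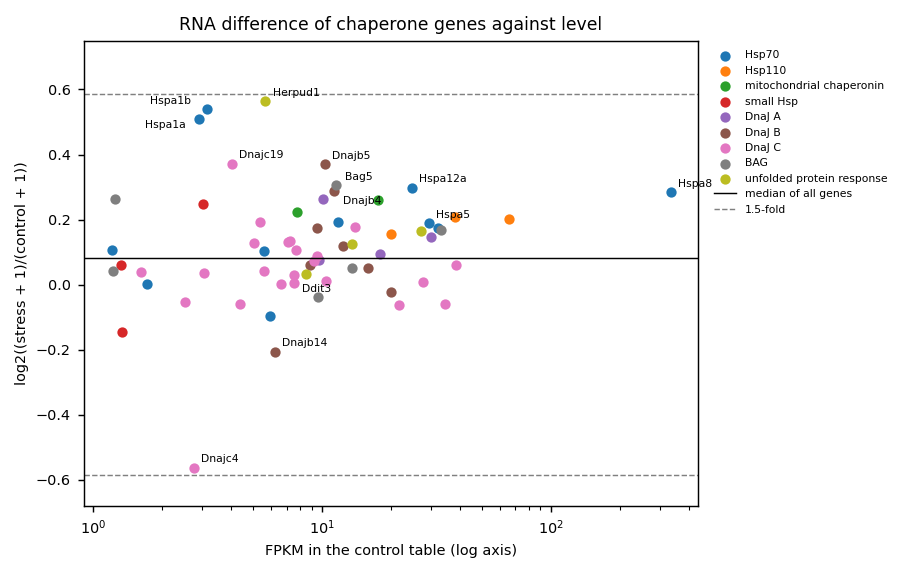
Difference between the tables, as log2((stress + 1)/(control + 1)), against control FPKM on a log axis for the 64 kept members above 0 in both tables, coloured by class. The solid line is the median of all genes at 0.08, the dashed lines mark 1.5-fold, and every point lies between the dashed lines, with Herpud1, Hspa1a and Hspa1b nearest the upper one and Dnajc4 nearest the lower one.

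Other genes of the same pathways were taken from 4 lists of non-members. Of 19 genes for heat shock factors and the Hsp90 system, all kept, 9 lay above and 10 below it, with a median difference of 0.08. Hsf1, the factor that drives the heat shock response, had 2.47 FPKM in controls and 2.13 in stress. The cytosolic Hsp90 genes Hsp90aa1 (158 and 175 FPKM) and Hsp90ab1 (302 and 342 FPKM) were abundant in each table. Of 13 genes for the cytosolic chaperonin and prefoldin 8 lay above (median 0.11). Of 20 genes for folding and degradation in the endoplasmic reticulum 9 lay above (median 0.08), and the ends of that list were Syvn1, the ubiquitin ligase that Herpud1 binds (2.24 and 3.71 FPKM), and Sil1, an exchange factor for BiP (5.89 and 4.35 FPKM). Of 14 sensors and ATF4 targets 9 were kept and 8 of them lay above (median 0.16), among them Chac1, which breaks down glutathione (0.960 and 1.53 FPKM). With the pseudocount of 1, no kept gene of these 4 lists was past 1.5-fold in either direction.

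The endoplasmic reticulum stress element, the site through which ATF6 and XBP1 act, was found in Hspa5 and Dnajc3, an Hsp40 of that compartment with 7.70 FPKM in the control table and 8.36 FPKM in the stress table. The 150 bases before each start are shown with the element in capitals, at positions -65 to -47 from the start of Hspa5 (GRCm38.p6, chr2:34771940-34772089, plus strand) and -105 to -87 from that of Dnajc3 (chr14:118937782-118937931, plus strand).
Hspa5: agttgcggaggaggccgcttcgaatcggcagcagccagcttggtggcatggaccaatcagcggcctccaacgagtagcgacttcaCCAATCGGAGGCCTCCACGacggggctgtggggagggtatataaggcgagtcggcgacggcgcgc
Dnajc3: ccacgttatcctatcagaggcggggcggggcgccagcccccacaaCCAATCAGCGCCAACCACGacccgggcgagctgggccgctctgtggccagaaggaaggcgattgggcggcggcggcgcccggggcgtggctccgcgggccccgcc

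Motifs were searched on both strands of the windows from 250 bases before to 50 after each start, which RefSeq gave for 66 of 79 members. The 3-unit heat shock element, alternating GAA and TTC with 2 bases between units, was in 4 of 66 members (6.06%: Hspd1, Hspe1, Dnajb6 and Hsph1) and in 0.662% of 27025 genes. Its 2-unit forms, GAANNTTC and TTCNNGAA, which the longer element contains, were in 17 members (25.8%) and in 17.0% of genes. The endoplasmic reticulum stress element, CCAAT and CCACG with 9 bases between, was in 2 members (3.03%) and 0.137% of genes. The cAMP element TGACGTCA was in Dnajc27 (1.52% of members, 2.03% of genes) and the XBP1 core TGACGTGG in Dnajc25 (1.52% and 0.714%). The ATF4 element, TGATGCAAT or TGATGAAAT, and the glucocorticoid element, AGAACA and TGTTCT with 3 bases between, had no match in these windows of the members (0.500% and 0.0111% of genes). The differences of the 4 genes with the 3-unit form ranged from 0.20 to 0.26 for Hsph1, Hspe1 and Hspd1, and the fourth is Dnajb6, listed at 0 in the stress table. Hspd1 and Hspe1 share the same 3-unit stretch, counted once for each gene. The 3-unit match of Hsph1 lies after the start, at positions 37 to 49 or 16 to 28 depending on the start used. A match is a stretch of letters and not a bound site.

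5hmC was compared as the percentage of each gene body under peaks, per library. Of 79 members 55 (69.6%) had a peak in at least 1 library, beside 52.7% of 23893 genes with coordinates, and 7 (8.86%) had a peak in all 6, beside 9.52%. Those without a peak were mostly short, with a median body of 4.07 kb where the members with a peak had 19.5 kb. Of 24 members under 5 kb, 16 had no peak. The members with no peak included Hspa8, the most abundant Hsp70 gene, the inducible pair Hspa1a and Hspa1b, and Hspa2. Also without a peak were the chaperonin pair Hspd1 and Hspe1, and Atf4 and Hspb1. Hspa4l at 44.8 kb and Dnajc5b at 102 kb were long and had none. The other 14 were Bag4, Dnaja4, Dnajb4, Dnajb7, Dnajb8, Dnajb13, Dnajc2, Dnajc5g, Dnajc9, Dnajc28, Dnajc30, Hspb2, Hspb7 and Hspb9. A body without a listed peak may still hold 5hmC under the authors' limit, a score of 50.

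Summed over all 79 bodies (1839.55 kb), peaks covered 2.00%, 3.00% and 3.66% in stress replicates 1, 2 and 3 and 2.61%, 2.92% and 1.62% in control replicates 1, 2 and 3. The groups overlapped, with means of 2.89% ± 0.836 and 2.38% ± 0.677 (SD, n = 3 each). All genes together had 1.88% ± 0.715 in stress and 1.32% ± 0.478 in control libraries. Divided by that value in its own library, member coverage was 1.87, 1.40 and 1.51 in stress and 2.47, 1.56 and 1.59 in control replicates. When every list was shortened to the same covered length, the difference of 0.503 percentage points in summed coverage became -0.053.

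**Figure D3:**
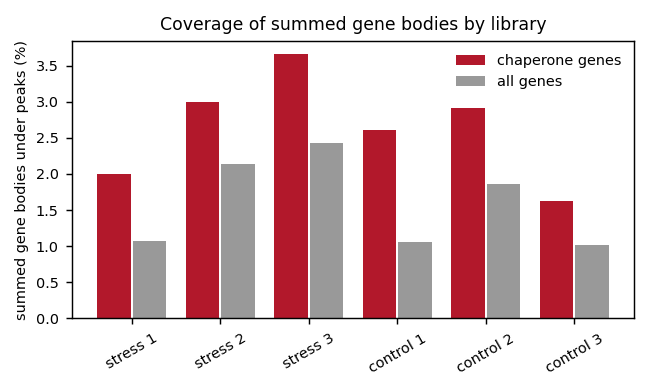
Percentage of the summed gene bodies under 5hmC peaks in each library, for the 79 chaperone genes (red) and all 23893 genes with coordinates (grey), 1 bar per library. The red bar is the taller in all 6 libraries, and the red bars of stress and control libraries overlap in height, from 1.62% to 3.66%.

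Coverage was higher in every stress library than in any control library for 2 of the 55 members with a peak, Dnajb5 and Dnajc12, which is 3.64% of them where 7.49% of all 12602 such genes were. It was lower in every stress library for 0 members, where 1.04% of all genes were. In the exact two-sided permutation test over the 20 assignments of 6 libraries the smallest p that 3 against 3 allow is 0.1. No gene could therefore pass this test, 0 of 12602 genes had an unadjusted p under 0.05, and after Benjamini-Hochberg adjustment every p was 1. The spread between libraries holds differences between pools of mice and between peak lists of unequal length, which this test cannot separate. The counts moved with single libraries: 8 members were higher without stress replicate 1 (24.6% of all genes), 5 without stress replicate 2 (11.8%) and 5 without control replicate 2 (15.8%). Lower members numbered 2 without stress replicate 1 (1.46% of all genes), 1 without stress replicate 2 (2.66%) and 3 without control replicate 3 (3.71%). Mean coverage was higher in stress for 32 of the 55 members (58.2%) and for 68.7% of all such genes.

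Dnajb5, an Hsp40 of the cytosol, had 27.4%, 29.3% and 37.5% of its 5.64 kb body under peaks in the stress replicates and 0, 17.5% and 0 in the control replicates. The groups did not overlap, and the means were 31.4% ± 5.37 and 5.82% ± 10.1 (SD, n = 3 each; exact permutation p = 0.1, adjusted 1). All of this was a single region over an exon (mm9, chr4:42969195-42971308) with a peak in all 3 stress libraries and in control replicate 2. Its RNA was at 10.3 FPKM in controls and 13.6 FPKM after stress. Dnajb1 had the like pattern without full separation, with 42.9%, 39.7% and 23.5% in stress and 0, 24.5% and 0 in control replicates (exact permutation p = 0.2, n = 3 each, adjusted 1). Its region (chr8:86133513-86135117, exon) also had its only control peak in replicate 2, the control list with the most peaks. Dnajc12 had 3.61%, 3.70% and 3.96% in stress and 2.99%, 2.99% and 0 in control replicates, so its groups were apart by 0.61 percentage points at their nearest (exact permutation p = 0.1, n = 3 each, adjusted 1).

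Bag5 had the highest mean coverage of all members, with 47.6%, 29.1% and 51.8% in stress and 35.6%, 33.6% and 28.4% in control replicates (means 42.8% ± 12.1 and 32.5% ± 3.72, SD, n = 3 each). The groups overlapped (exact permutation p = 0.3, adjusted 1). Hspa5 followed, with 37.5%, 31.9% and 0 in stress and 26.5%, 33.3% and 20.6% in control replicates, from 1 exonic region (chr2:34628949-34630640) that had a peak in every library but stress replicate 3. Dnajb3, a DnaJ gene of 1.02 kb inside the Ugt1a cluster, had 68.8% in stress replicate 3, 61.0% in control replicate 1 and 0 in the others. Bag2 had 8.54%, 39.2% and 23.4% in stress and 0, 28.7% and 11.0% in control replicates. The 5 members of highest mean coverage, Bag5, Hspa5, Dnajb1, Dnajb3 and Dnajb5, had bodies of 1.02 to 5.64 kb, in which a single peak covers much of the gene.

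The members with a peak in all 6 libraries were Bag5, Dnajb14, Dnajc1, Dnajc3, Dnajc7, Dnajc11 and Hspa4. Dnajc11, which helps to shape the inner folds of mitochondria, had 6.65%, 16.9% and 8.87% in stress and 4.77%, 8.12% and 4.20% in control replicates (exact permutation p = 0.2, n = 3 each, adjusted 1). Dnajc7 had 3.73%, 3.38% and 3.66% against 5.95%, 6.08% and 3.73% (exact permutation p = 0.2, adjusted 1). Its 2 higher control libraries lay above all stress libraries, and control replicate 3 was level with stress replicate 1. Dnajb14 had 4.45%, 7.56% and 10.9% against 6.44%, 10.1% and 7.78%, and Hspa4 had 6.83%, 2.1% and 8.42% against 5.15%, 2.42% and 3.60%. Dnajc3 had 2.05%, 5.89% and 13.1% against 5.20%, 3.85% and 2.81%. In these 3 genes the groups overlapped widely. Another 14 members had a peak in 1 library only, among them Hspa9, Dnajc5, Dnajc19 and Bag1.

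On their bodies alone, the stress and control libraries overlapped for the genes of the unfolded protein response. Ddit3 had 12.5%, 27.2% and 12.5% in stress and 25.5%, 15.8% and 0 in control replicates, a difference of 3.64 percentage points that was 10.2 with the body extended by 5 kb (exact permutation p = 0.1, n = 3 each, adjusted 1). The Ddit3 region (chr10:126731771-126734769) reached past the end of the body and overlapped the gene Mars. Xbp1 had 0, 18.6% and 18.7% against 16.8%, 0 and 0. Herpud1 had 0, 0 and 20.1% against 27.1%, 14.4% and 0. Hsph1, the abundant Hsp110, had 6.50%, 9.14% and 9.50% against 9.29%, 0 and 9.96%. In each of these 4 genes the groups overlapped, and Atf4 had no peak.

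**Figure D4:**
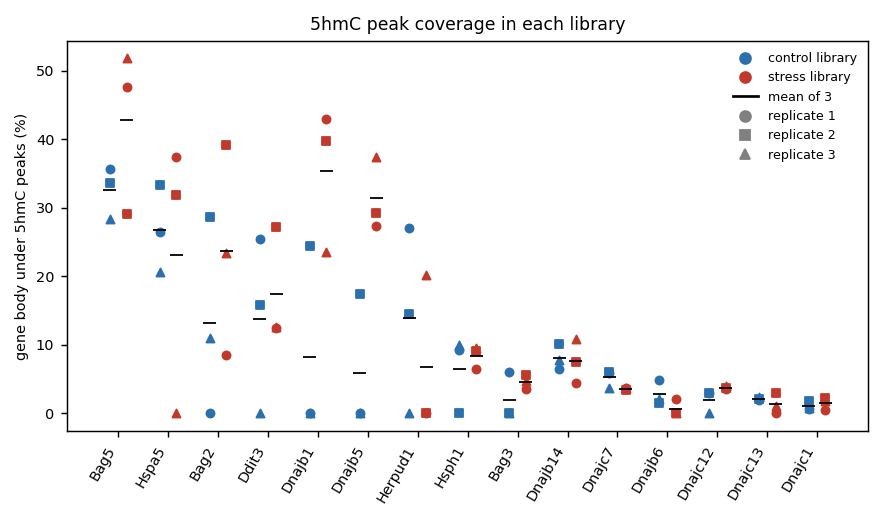
Percentage of the gene body under 5hmC peaks in each library for 15 named members, with control libraries in blue, stress libraries in red, symbols for replicates 1 to 3 and black bars for the mean of 3. Dnajb5 and Dnajc12 are the members plotted whose groups do not overlap, and Dnajb5, Dnajb1 and Bag3 each have 2 control libraries at 0.

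Merging overlapping peaks of the 6 lists gave 120 regions in member bodies, 60 of them with a peak in 1 library and 3 in all 6. The shares were 50% and 2.5%, beside 55.3% and 1.80% of 43593 regions in the bodies of all genes. By place 9 regions (7.5%) touched a promoter, taken as 1 kb around a start, 60 (50%) an exon and 51 (42.5%) lay in introns. Regions in all gene bodies were at 5.82%, 31.1% and 63.1%. Gene length and exon number were not matched between the sets. Of the 120 regions 7 were shared with another gene and 6 reached past the body. The 3 regions with a peak in all 6 libraries were in Bag5 (chr12:112947982-112950164, exon), Dnajb14 (chr3:137531677-137534449, intron) and Dnajc7 (chr11:100476823-100478244, intron), a DnaJ that links Hsp70 with Hsp90.

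A region was called stress-only when it held a peak from each of the 3 stress libraries and from no control library. Such a region was in 3 members, 5.45% of those with a peak, where 4.63% of all 12602 genes with a peak held one. They were Bag3 (chr7:135671650-135673341, intron), Hsph1 (chr5:150423317-150425191, intron) and Dnajc1, an Hsp40 of the endoplasmic reticulum membrane (chr2:18293653-18294858, intron of a 186 kb gene). Control-only regions were in 2 members, 3.64%, where 1.24% of all genes held one. They were in Dnajb6 (chr5:30063284-30065087) and in Dnajc13, which sorts cargo on endosomes (chr9:104163476-104164384). Both merged regions reached within 1 kb of a start, with centres 1747 and 1330 bases from the nearest start. The peaks of the Dnajb6 region had scores above those of 99.8%, 80.2% and 70.6% of peaks in the lists of control replicates 1, 2 and 3. Those of the Dnajc13 region were above 67.0%, 9.06% and 30.3%. Peaks of the stress-only regions were ranked in the same way in the lists of stress replicates 1, 2 and 3. They were above 50.3%, 73.7% and 14.2% for Bag3, and 28.6%, 71.8% and 81.1% for Hsph1. For Dnajc1 the values were 10.4%, 44.3% and 84.8%.

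These regions did not carry over to whole bodies. Bag3 had 3.59%, 5.56% and 4.77% of its body under peaks in stress and 5.97%, 0 and 0 in control replicates, because control replicate 1 had a peak elsewhere in the gene. Dnajb6 had 2.1%, 0 and 0 in stress and 4.86%, 1.49% and 2.06% in control replicates (exact permutation p = 0.3, n = 3 each, adjusted 1). Dnajc13 had 0, 2.97% and 1.00% against 1.98%, 2.12% and 2.38%, and Dnajc1 had 0.54%, 2.21% and 1.74% against 0.65%, 1.83% and 0.85%. With only the higher-scoring 50% of each list, the stress-only regions of Bag3, Dnajc1 and Hsph1 were lost and 1 appeared in Dnajb5, and the control-only region of Dnajb6 was the 1 left. When a library counted if it covered 50% of a region, that of Dnajb6 was lost and that of Dnajc13 was left. The peaks of control replicates 2 and 3 in the Dnajb6 region lay side by side and were joined by that of replicate 1, so without replicate 1 no region there had a peak in every control library left. The 3 stress-only regions, beside 1.30% of regions in all gene bodies, became 7 without stress replicate 2 (3.02%) and 6 without control replicate 2 (3.32%). The 2 control-only regions, beside 0.360%, became 1 without control replicate 1 (1.70%) and 6 without control replicate 3 (1.62%).

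**Figure D5:**
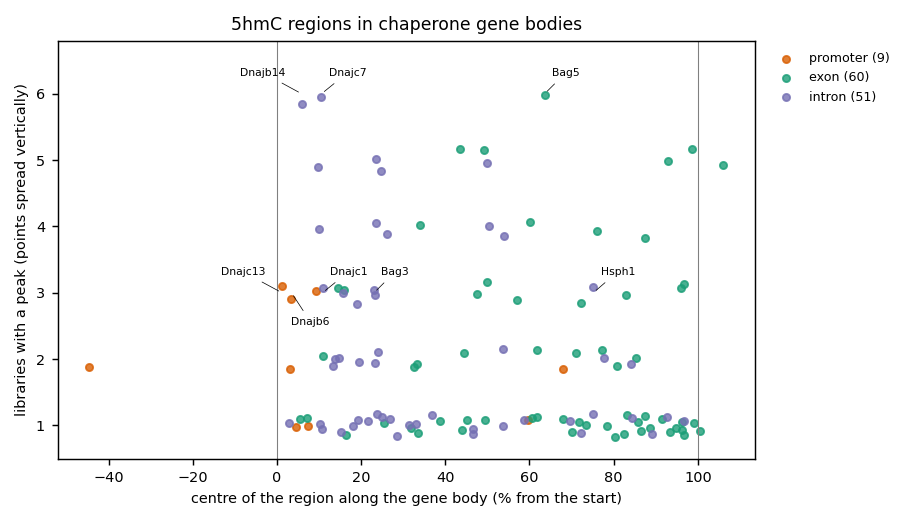
The 120 merged 5hmC regions in chaperone gene bodies, by the position of their centre along the body (0 at the start, 100 at the end, in the direction of transcription) and the number of libraries with a peak, coloured by place. The regions of Bag5, Dnajb14 and Dnajc7 stand at 6 libraries, and the control-only regions of Dnajb6 and Dnajc13 lie next to the start.

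Across the 48 members of at least 10 kb, control FPKM and mean coverage had a Spearman rho of -0.01, and across 13987 genes of that length it was 0.32. Over the 50 kept members with a peak, the RNA difference and the coverage difference had a rho of 0.15. Genes are not independent replicates and share their libraries, so these values describe the lists.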

How the data were processed

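Samples were grouped by title and treatment tag. For each 5hmC library the authors deposited a scored peak list in mm9 coordinates. The submitters' processing notes name Bowtie 0.12.9 as aligner, and edgeR. The lowest deposited score was 50, and the score served only to rank peaks within a list. For RNA the authors deposited FPKM with an interval for each of 33262 RefSeq transcripts, 1 table per group, made with TopHat 1.0.12, Cufflinks 2.1.1 and Cuffdiff 2.1.1 per the submitters' processing notes. The deposited FPKM lay outside its interval for a transcript in 25 of the kept members, so intervals were not used as errors. The labels give the depth of the 5hmC libraries only as a range over all of them. RNA depth is unknown, and coverage per FPKM, which follows it, was 8.14 (control) and 9.22 (stress).

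FPKM of transcripts were summed per gene, a pseudocount of 1 was added before log2, and genes were kept when their mean reached 1 FPKM. Peaks sharing 1 bp or more were joined into regions, and coverage is the percentage of a gene body under peaks. Each gene was tested with an exact permutation test and Benjamini-Hochberg adjustment over 12602 genes. Python 3.11.15, pandas 2.3.3, scipy 1.17.1 and matplotlib 3.10.9 were used. The steps were checked on simulated data. Promoters come from RefSeq (GRCm38.p6) and were matched by symbol, and no mm9 genome was used, so no peak sequence is given.

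The members and lists were chosen with earlier results of these data known. Any member could be named, and those at the ends of the RNA and 5hmC rankings, those with a region found in 1 group only and 15 fixed genes were given in full. The alternatives were another pseudocount, no or a stricter filter, centring, the most abundant isoform, bodies extended by 5 kb, shortened peak lists, stricter or looser merging, replicate blocks and leaving out each library. Restricting RNA to genes above 0 in both tables was added after seeing the data.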

Additional observations from a re-analysis of the deposited data

How the results depend on the processing

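With the pseudocount of 1, the count of kept members at least 1.5-fold higher in the stress RNA table was 0. It became 3 with a pseudocount of 0.1 (3.03% of all genes). The count at least 1.5-fold lower was 1 and became 2 with a pseudocount of 0.1 (1.98% of all genes). After subtracting the median of all genes it was 2 (1.27%). It was 0 among genes above 0 in both tables (0.770%), which leaves out Dnajb6 by its construction. Centring took the median RNA difference of members from 0.11 to 0.023. The count of members with higher coverage in every stress library was 2, 6 with bodies extended by 5 kb (8.35% of all genes), and 2 to 8 with a library left out (9.03% to 24.6%). The count with lower coverage was 0, and 1 with extended bodies (1.09% of all genes) and with equal numbers of top-scoring peaks (2.11%). It was also 1 with the higher-scoring 50% of each list (1.24%) and with the same covered length (3.11%). With a library left out it was 0 to 3 (1.46% to 3.71%).

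The difference in summed coverage was 0.503 percentage points, 0.116 to 0.946 with a library left out, and -0.053 with the same covered length. Stress-only regions numbered 3, beside 1.30% of regions in all gene bodies. They numbered 7 with extended bodies, 1 with the higher-scoring 50% of each list, and 3 to 7 with a library left out. Control-only regions numbered 2, beside 0.360% of regions in all gene bodies. They numbered 1 when a library counted if it covered 50% of a region and 1 with the same number of peaks. With the higher-scoring 50% they numbered 1, and 1 to 6 with a library left out. Shares over all gene bodies rose too where a library named above was left out, and shares for the other settings are not given here. These counts of regions alone are therefore not a result about members. The cause was not tested.

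Replicate numbers are not stated to mark shared batches. Deviations from the group means correlated at 0.115, 0.0148 and -0.0404 for numbers 1, 2 and 3. For unlike numbers the values ran from -0.141 to 0.113, and 3 libraries a group cannot settle whether the numbers pair the samples. With the replicate block, 5 members were higher in stress in all 3 pairs (13.7% of all genes) and 2 lower (2.43%).

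Of 26 named members with a coverage difference, 9 changed sign under some alternative. With bodies extended by 5 kb, Dnajb14 became 0.263 and Herpud1 0.295 percentage points. With equal numbers of peaks, Dnajb14 became 1.95, Dnajb3 -20.3, Dnajc1 -0.082, Dnajc8 -0.55 and Hspa12a -0.34. With the higher-scoring 50% they became 1.26, -20.3, -0.26, -2.35 and -0.57, and Hspa5 3.17. With the same covered length they became 1.43, -20.3, -0.23, -0.55 and -0.34. With a library left out, the difference ran from -2.12 to 1.11 for Dnajb14, -3.24 to 9.51 for Ddit3, -20.3 to 22.9 for Dnajb3, -0.12 to 1.31 for Hspa12a, -10.9 to 7.87 for Hspa5, -0.0092 to 3.52 for Dnajc8 and -1.24 to 3.74 for Hsph1. The most abundant isoform alone gave RNA differences of -0.16 for Hspa5, -0.06 for Atf4, -0.06 for Ddit3, -0.05 for Dnajc1, 0.44 for Dnajc12 and 0.03 for Dnajc6, each of the other sign than the gene's sum.

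Depth per RNA table is unknown and each has no replicate. Peak lists cover from 16.6 to 38.1 Mb, and 3 libraries a group cannot pass the exact permutation test.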
